A study of Danio rerio with 4 samples.

Results

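Solute carriers are membrane proteins that move amino acids, sugars, organic acids, metals and ions across cell membranes, either along a gradient or by coupling one solute to another. Many draw on the sodium gradient kept up by the Na,K-ATPase, and some work only together with a partner protein that brings them to the cell surface. In the kidney they recover nutrients and salts from the filtrate, while blood cells rely on them for amino acids, glucose, iron and the export of lactate. Members were all genes whose symbol in the array's annotation is slc followed by a digit, without the mitochondrial slc25 carriers and without slc13a1 and slc12a3. This rule gave 110 of the 8793 genes measured, from 38 families. It chose genes by symbol, but was set with earlier results of these data known, and both genes left out by name were measured. Expression values also entered in that a gene with several probe sets was represented by the one with the highest mean. Although the family is known for the plasma membrane, 28 of the 110 belong to families or genes listed as residing mostly on internal membranes, such as the nucleotide sugar transporters of the Golgi. A further 2 are no transporters: slc4a1ap is named for an adaptor of an anion exchanger, and slc7a6os lies opposite an amino acid transporter gene.

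RNA came from adult zebrafish kidney cells sorted through a gate of low forward and low side scatter, which holds the lymphoid cells. The zSP group is the Hoechst side population of this gate and the zMP group its main population, and no strain, age, mutation or treatment is given for either in the sources used here. For both groups 20 fish served 3 sorting experiments, lysates were pooled by population, and each of the 2 RNA pools was split between 2 arrays. Each group is thus 1 pool of many animals, so that the arrays of a group differ by technical steps alone and no test between the populations was possible.

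All values are log2 expression values as deposited, and differences are zSP minus zMP. The zSP and zMP arrays form 4 pairs, and a gene was called higher in a population when it passed a difference of 1, or 2-fold, in that direction in every pair. The range printed after a difference runs over these pairs. Across all 15502 probe sets, Pearson's r was 0.943 for the aliquots of zSP and 0.952 for those of zMP, against 0.868 to 0.875 for arrays of unlike populations. Group means at or below 6.15, the highest group mean among 49 control probe sets for sequences that zebrafish cells do not transcribe, are called within the blank range, where a transcript is not shown to be present. The median difference of these controls was -0.38, and GAPDH control probe sets at the 3′ end exceeded those at the 5′ end by 0.86 more in zSP.

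Of the 110 solute carriers, 12 were called higher in zSP, and no call favoured zMP. The 12 are the monocarboxylate transporters slc16a9a, slc16a3b and slc16a12b, the zinc importer slc39a3, the urate transporter relative slc2a9l1, the lactate transporter slc5a12, the amino acid transport genes slc3a2a, slc7a7, slc7a3a and slc38a6, and the organic ion transporters slc22a2 and slc22a7b.1. They make up 10.9% of the members, while 7.85% of all genes were called higher in zSP, so that the share is near the background. Towards zMP the background was 2.89%, and no member passed the size in all pairs. By the mean the lowest members were slc9a7 at -1.16 (-3.04 to 0.72) and slc29a2 at -1.09 (-1.87 to -0.31). By the pair that must pass, slc12a9 at -0.91 (-1.04 to -0.78) and slc52a2 at -0.67 (-0.68 to -0.65) came nearer, and these were the 2 members called at a size of 1.5-fold. The median difference of the members was 0.01, between -0.06 and 0.05 for single pairs of arrays, against -0.20 for all genes. In all, 57 members had a difference above 0. Leaving out an array leaves 2 pairs that must pass. The calls towards zSP then came to 19 when zSP replicate 1 was left out and 20 when zSP replicate 2 was. They came to 16 when zMP replicate 1 was left out and 19 when zMP replicate 2 was. The background was then 11.9%, 12.5%, 11.02% and 11.04%. All of the 12 stayed called each time, which the rule fixes in advance, since fewer pairs have to pass. The calls towards zMP came to 3, 0, 1 and 1 in the same order, against a background of 6.70%, 6.35%, 6.72% and 6.05%.

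**Figure D1:**
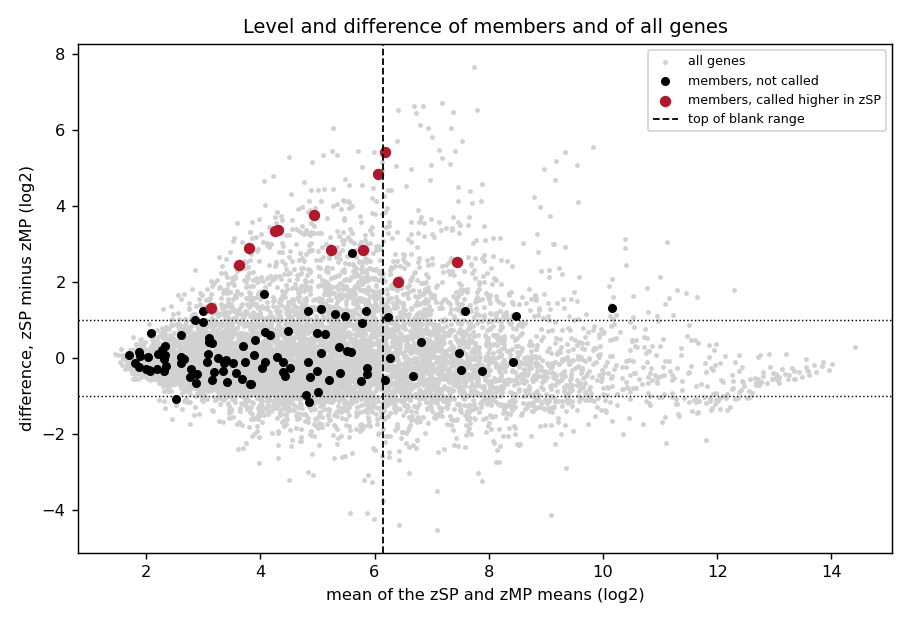
Difference between the populations (zSP minus zMP, log2, vertical) against the mean of both population means (log2, horizontal) for all 8793 genes, in grey. Of the 110 solute carriers the 12 called higher in zSP are red and the others black. The 2-fold lines are dotted and the top of the blank range, 6.15, is dashed. By their means 24 members lie above the upper dotted line, the 12 called among them. Below the lower one lie 2, slc9a7 and slc29a2, neither called.

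Most members gave little signal in either pool. Both means lay within the blank range for 88 of the 110, and 22 members, 20.0%, had a mean above it in at least 1 population, against 33.2% of all genes. A mean above the range was found for 21 members in zSP and for 12 in zMP. In zSP, 7 of the 12 called members passed the blank range by their mean. In zMP, 11 of them did not, so that for these 11 a transcript is not shown to be present in zMP. The exception was slc22a7b.1, whose zMP mean was 6.18. Aliquots of the same RNA were at least 2-fold apart in 1 or both populations for 29 members, among them 5 of the 12 called. The SD of the difference between the zSP arrays was 0.92 over the members and 0.82 over all genes, and that between the zMP arrays was 0.76 and 0.72.

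The monocarboxylate transporters of family 16 held the largest measured difference. This family carries lactate, pyruvate and related small acids, and some of its members carry creatine, carnitine or thyroid hormone instead. For slc16a9a, whose human counterpart has been linked to carnitine and creatine transport, the zSP arrays gave 8.96 and 8.81 and the zMP arrays 3.81 and 3.15. The difference was 5.40 (5.001 to 5.81), and both zSP arrays lay well above both zMP arrays. The zMP mean of 3.48 is within the blank range. The difference is thus measured from a level at which a transcript is not shown to be present. For slc16a3b, a relative of the mammalian lactate exporter of glycolytic cells, the values were 6.33 and 5.64 in zSP against 2.59 and 2.66 in zMP. This difference was 3.36 (2.97 to 3.74), with a zSP mean of 5.98 inside the blank range. For slc16a12b, related to a creatine transporter, the zSP arrays read 3.84 and 3.72 and the zMP arrays 2.64 and 2.33. Its call, at 1.29 (1.08 to 1.51), lies entirely within the blank range and is the smallest of the 12. The remaining members were not called. The lactate and pyruvate transporter slc16a1b stood at -0.41 (-0.57 to -0.25) and slc16a9b at 0.46 (-0.05 to 0.97), both within the blank range throughout. In total 3 of the 5 measured members of family 16 met the call towards zSP, and the median difference of all 5 was 1.29. The chaperone of these transporters, bsg, was read at 10.46 and 10.01 in zSP and at 10.23 and 8.99 in zMP. The arrays overlapped, and bsg, at 0.62 (-0.22 to 1.47), was not called. Its relative emb stood at -0.80 (-1.08 to -0.51), within the blank range.

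**Figure D2:**
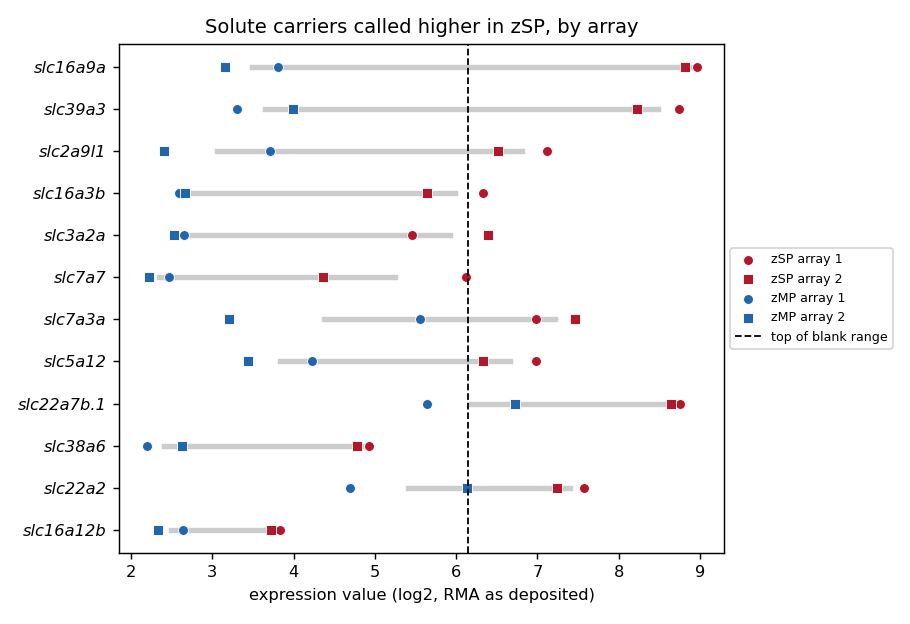
Log2 expression values (horizontal) of the 12 solute carriers called higher in zSP, with zSP arrays in red, zMP arrays in blue, replicate 1 as circles, replicate 2 as squares and a grey bar between the population means. The top of the blank range, 6.15, is dashed, and in every row both red points lie at least 1 unit to the right of both blue points.

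Lactate is also carried by slc5a12, a member of the sodium-glucose cotransporter family that in mammals takes lactate up in the kidney tubule. Its zSP arrays read 6.98 and 6.34, and its zMP arrays 4.23 and 3.43. The groups did not overlap, and the difference was 2.83 (2.11 to 3.55). The other measured members of family 5, the vitamin transporter slc5a6b at 0.93 and the monocarboxylate transporter relative slc5a8l at 0.66, were not called and lay within the blank range.

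Beside 7.85% of all genes called higher in zSP, 1 of the 8 facilitative glucose transporters of family 2 was called. This was slc2a9l1, a relative of the mammalian urate transporter, at 7.11 and 6.51 in zSP and 3.71 and 2.41 in zMP. The difference was 3.75 (2.80 to 4.71), and the zMP arrays themselves lay 1.31 apart. The other 7 had both means within the blank range. Of these slc2a11l came nearest to a call at 1.22 (0.77 to 1.68), followed by slc2a10 at 0.59 (-0.77 to 1.95) and slc2a11b at 0.52 (0.34 to 0.69). For slc2a10, zSP array 2 read 5.71, zSP array 1 read 3.23 and the zMP mean was 3.88. The glucose transporter of liver and pancreas, slc2a2, stood at 0.06 with 1.76 as its highest array value, slc2a8 at -0.14, slc2a15b at -0.28 and slc2a3a at -0.50 (-0.62 to -0.38). Among the sugar phosphate exchangers of family 37, slc37a2 read 6.12 and 6.39 in zSP and 6.58 and 5.98 in zMP, with overlapping arrays and a difference of -0.02.

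Amino acid transporters ranged from genes called higher in zSP to genes with a difference near or below 0, with others in between. Of 20 members in families classed under amino acids and peptides, 4 were called higher in zSP and the class median was -0.01. Over all genes the share called higher in zSP was 7.85%. A mean above the blank range in at least 1 population was found for 6 of the 20. The class follows the family number, so that slc6a19a.1 and slc6a19b of family 6, not called, are counted under neurotransmitters and osmolytes. Heteromeric transporters join a heavy chain of family 3, needed at the cell surface, to a light chain of family 7 that does the transport. The heavy chain gene slc3a2a read 5.46 and 6.39 in zSP and 2.66 and 2.53 in zMP. It was called at 3.33 (2.81 to 3.86), although its zSP mean of 5.93 lies within the blank range. Its paralogue slc3a2b gave 8.13 and 8.58 in zSP and 8.67 and 8.29 in zMP, well above the blank range in every array. The arrays of the populations overlapped, and the difference was -0.12 (-0.54 to 0.30). The light chain gene slc7a7, which in mammals exports cationic amino acids from tubule and gut cells and is also active in macrophages, read 6.12 and 4.37 in zSP against 2.47 and 2.23 in zMP. The call, at 2.90 (1.90 to 3.89), stands on means that are within the blank range in both pools, and its zSP arrays lay 1.75 apart. The light chain gene slc7a8a, a carrier of neutral amino acids, stood at 0.90 (0.13 to 1.68) and was not called.

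Other cationic amino acid carriers of family 7 need no heavy chain. Of these, slc7a3a read 6.98 and 7.46 in zSP and 5.55 and 3.20 in zMP. It was called at 2.84 (1.43 to 4.25), with zMP arrays that were 2.35 apart. The size of the difference was 4.01 without zMP replicate 1 and 1.67 without zMP replicate 2. With fewer pairs to pass, neither setting could end the call. Its relative slc7a1b stood at -0.47 (-0.62 to -0.32), within the blank range. Family 38 holds the sodium-coupled carriers of glutamine and other neutral amino acids. Beside 7.85% of all genes, 1 of its 6 measured members was called higher in zSP, slc38a6 at 2.45 (2.16 to 2.74). Its arrays read 4.93 and 4.78 in zSP and 2.19 and 2.63 in zMP, all within the blank range. The member of this family known to rise under amino acid shortage, slc38a2, read 8.07 and 8.32 in zSP against 7.31 and 6.61 in zMP. Its groups did not overlap, but at 1.24 (0.76 to 1.71) it missed the size of a call. The glutamine transporter slc38a5b lay on the other side at -0.47 (-0.90 to -0.05). In family 43, slc43a2a at 1.22 (0.59 to 1.85) and slc43a1a at 1.15 (0.37 to 1.92), carriers of large neutral amino acids, also missed the call.

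The metal transporters held the second largest measured difference. The zinc importer slc39a3 read 8.74 and 8.23 in zSP and 3.30 and 3.998 in zMP. That is a difference of 4.84 (4.23 to 5.44), with the zMP mean within the blank range. The other 5 zinc importers measured were not called and stayed within the blank range, with differences of 0.42 for slc39a6, 0.15 for slc39a7, 0.01 for slc39a13, -0.15 for slc39a5 and -0.35 for slc39a9. A second probe set of slc39a9 had the other sign, at 0.82, and that of slc39a7 stood at 0.79 (0.50 to 1.08). Zinc exporters of family 30, which fill vesicles and the Golgi or clear the cytosol, lay between -0.36 (slc30a6) and 0.42 (slc30a7) and none of the 5 was called. Among them slc30a6 and slc30a7 were above the blank range in both populations. For slc30a9, at -0.12 by the probe set used, both other probe sets stood lower, at -0.71, within the blank range. The metal-responsive transcription factor mtf1, which switches on zinc defence genes, stood at -0.77 (-1.04 to -0.50), within the blank range.

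Iron and copper carriers did not separate the populations. The iron importer slc11a2 read 7.10 and 7.98 in zSP and 7.60 and 7.25 in zMP, so that the arrays interleaved around a difference of 0.12 (-0.50 to 0.73). The iron exporter slc40a1 stood at 0.64 (-0.11 to 1.40), within the blank range. The ferritin genes fth1a and fthl27, which store iron, differed by 0.09 each at levels near the top of the scale, between 12.81 and 13.28. The gene hp, listed with them, was higher in zSP in every pair, at 1.29 (0.38 to 2.20). It was not called, and both its means lay within the blank range. For the copper importer slc31a1 the zSP arrays read 6.47 and 7.08 and the zMP arrays 4.56 and 6.87. Its difference was 1.06 (-0.40 to 2.52), and 2.21 without zMP replicate 2. Its second probe set stood at -0.72 (-0.89 to -0.55).

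Organic ion carriers of family 22 clear drugs and metabolites in kidney and liver. Of the 3 measured, 2 were called higher in zSP, beside 7.85% of all genes. For slc22a7b.1, a relative of the mammalian organic anion transporters, the values were 8.75 and 8.64 in zSP and 5.64 and 6.72 in zMP. The difference was 2.52 (1.92 to 3.11), and it is the called member with a mean above the blank range in both populations. The organic cation transporter slc22a2 read 7.57 and 7.24 in zSP and 4.69 and 6.14 in zMP. It was called at 1.99 (1.103 to 2.88), which fell to 1.27 without zMP replicate 1. Its second probe set had a smaller difference of 1.20 (0.72 to 1.69), and the call ended at 1.60 with both probe sets averaged and at 1.83 after a second quantile normalization. The third, slc22a31, stood at 0.01. Of the bile acid transporter family, slc10a2 ranged from -1.60 to 2.15 around 0.27, and slc10a7 stood at -0.60 (-1.46 to 0.26).

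Phosphate carriers included slc20a1b, a sodium-phosphate cotransporter of the type that supplies most cells, which was well above the blank range on all arrays. It read 11.03 and 10.59 in zSP against 9.76 and 9.27 in zMP. Both zSP arrays lay above both zMP arrays, but at 1.29 (0.83 to 1.76) it was not called as reported. It was called at 1.5-fold, by the means alone, at 1.52 without zSP replicate 2, at 1.54 without zMP replicate 1 and at 1.62 after cyclic loess. Its paralogue slc20a1a had nearly the same mean difference, 1.22, but here zSP array 1 read 4.68 and the other 3 arrays between 2.34 and 2.52. The rest of the phosphate carriers stayed within the blank range, with slc20a2 at -0.35, slc34a2a at -0.33 and slc34a2b at 0.10.

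**Figure D3:**
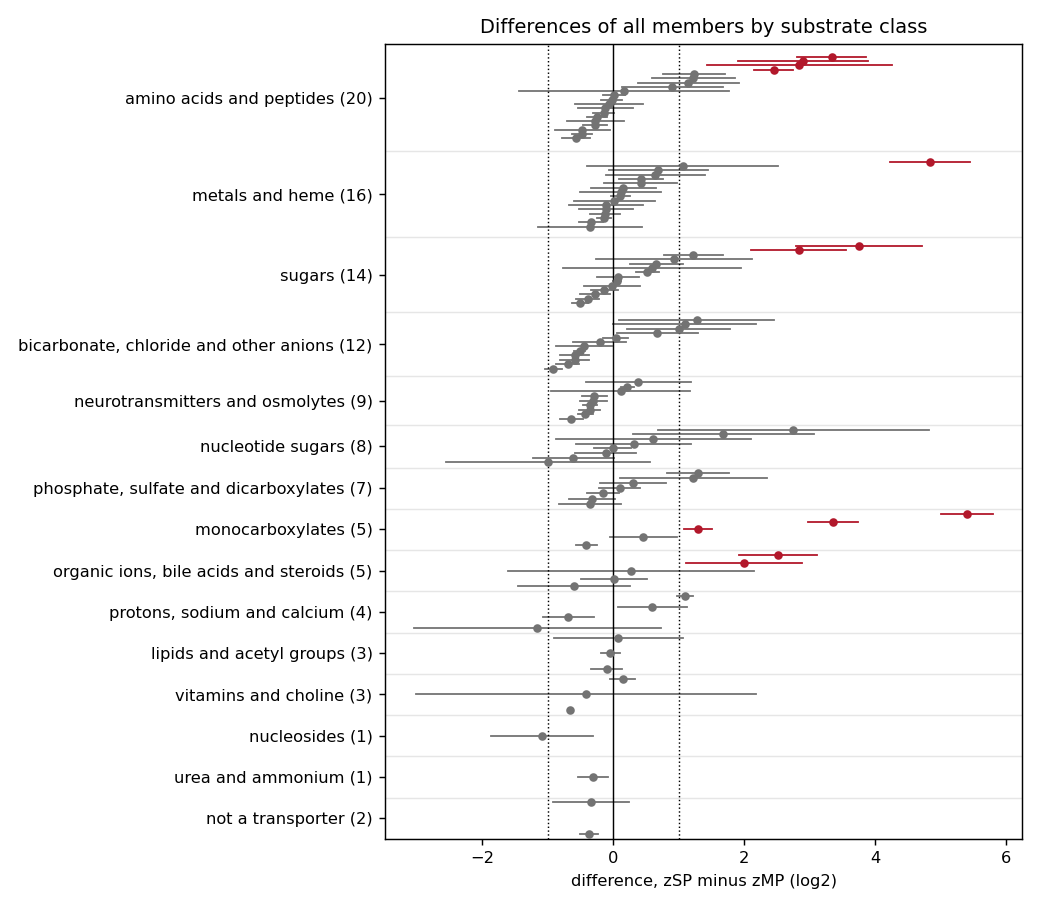
Difference between the populations (zSP minus zMP, log2) of each of the 110 members, 1 point a gene, with a line over its 4 pairs of arrays, grouped by substrate class with the number of members in brackets. Red marks the 12 called members, which fall in 5 classes, and dotted lines mark the 2-fold size.

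Anion exchangers and cation-chloride cotransporters showed no call among 12 members, with a class median of -0.33. All 12 had both means within the blank range, and the blank controls themselves had a median difference of -0.38. The largest was slc12a8 at 1.27 (0.09 to 2.45), where zSP array 2 read 6.67 and the other arrays between 4.22 and 4.73. The potassium-chloride cotransporter relatives slc12a4, slc12a7b and slc12a9 stood at -0.51 (-0.59 to -0.43), -0.44 (-0.87 to -0.01) and -0.91 (-1.04 to -0.78). A second probe set of slc12a9 had the other sign, at 0.41. For the anion exchanger slc4a2a the probe set used gave -0.59 (-0.81 to -0.36). It counts as of shared sequence by the ending of its name, and whether it reads other genes was not examined. Another of the 3 probe sets of slc4a2a, weaker by mean, read 5.82 on average in zSP and 3.34 in zMP. That probe set met the size of a call at 2.48 (1.76 to 3.21), the only one among the 16 unused probe sets of the 14 members that have several. With shared-sequence probe sets left out it represents slc4a2a, which then counts as called higher in zSP, though both its means lie within the blank range. The band 3 gene slc4a1a, the anion exchanger of red cells, lay at or under 2.01 on all 4 arrays, with a difference of 0.03.

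In the other classes no member was called. Among protons, sodium and calcium, the sodium-potassium-calcium exchanger slc24a4a read 9.11 and 8.96 in zSP and 7.89 and 7.98 in zMP. Its 4 arrays separated closely by population, and with 1.099 (0.98 to 1.22) it lies just outside the call, as slc16a12b lies just inside. It was called at 1.5-fold, by the means alone, at 1.18 without zSP replicate 2, at 1.14 without zMP replicate 2, at 1.17 after median centring and at 1.28 after cyclic loess. The Golgi and endosomal proton exchanger slc9a7, at -1.16, ranged from -3.04 to 0.72. Its zSP arrays read 5.81 and 2.74 and its zMP arrays 5.78 and 5.09. The nucleoside transporter slc29a2 stood at -1.09 (-1.87 to -0.31), with 3.83 as its highest array value. Of 8 nucleotide sugar transporters, slc35f6 had a difference of 2.75 that was no call, since its pairs ranged from 0.68 to 4.82. Its arrays read 7.54 and 6.41 in zSP and 5.73 and 2.72 in zMP, the difference was 4.25 without zMP replicate 1, and its second probe set stood at -0.44. The other largest values were 0.38 (slc17a5) and -0.64 (slc6a3) among 9 neurotransmitter and osmolyte carriers, -0.67 for the riboflavin transporter slc52a2 among 3 vitamin carriers, -0.10 for slc27a2a among 3 fatty acid carriers and -0.31 for the urea transporter slc14a2. All of these lay within the blank range. None of the 28 members listed as internal was called, with a median of -0.12, and all 12 calls came from the 80 other transporters, whose median was 0.10. Over all genes 7.85% were called higher in zSP. A mean above the blank range in at least 1 population was found for 4 of the 28 and for 17 of the 80. The list of internal members comes from general, mostly mammalian knowledge of the families, and places in zebrafish cells were not examined. The difference between these sets was not tested.

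Pairs of members with the same family and gene number, whose symbols differ only in their ending, did not always share their difference. Most carry the endings a and b, and the pairs slc2a11b with slc2a11l and slc6a19a.1 with slc6a19b are counted with them. Of 8 such pairs measured, 2 had 1 member called and none had both. For slc16a9 the copies were 4.94 apart in their differences, and for slc3a2 they were 3.45 apart. In the slc3a2 pair the called copy had means within the blank range in both populations, and the copy not called was above it on all 4 arrays. The slc43a2 copies were 1.37 apart, with slc43a2b at -0.15. The other 5 pairs were 0.07 to 0.71 apart.

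**Figure D4:**
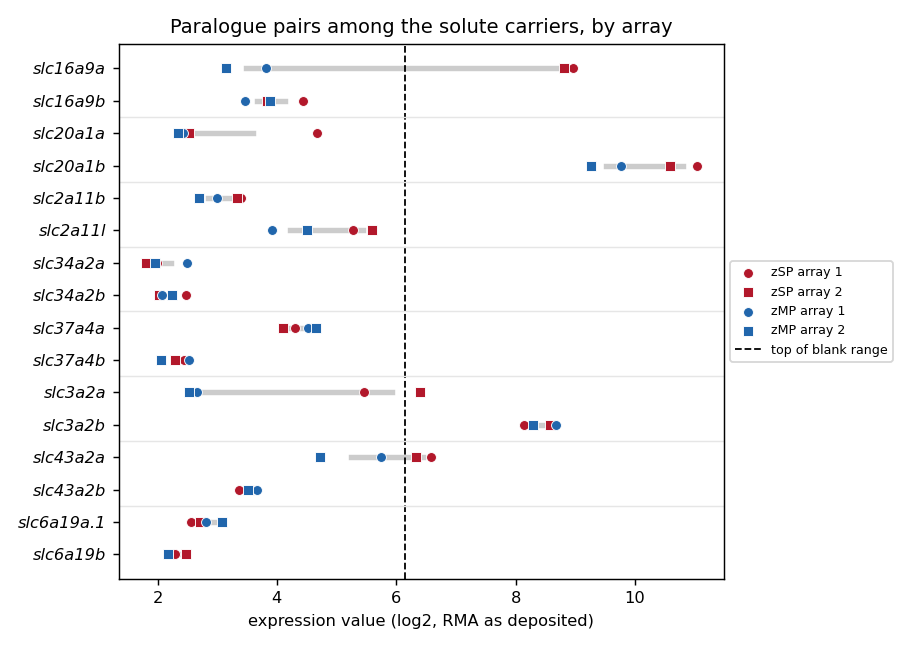
Log2 expression values (horizontal) of the 8 paralogue pairs on each array, with zSP in red, zMP in blue, replicate 1 as circles, replicate 2 as squares, and the top of the blank range dashed. The red and blue points separate widely for slc16a9a and slc3a2a and not for slc16a9b and slc3a2b.

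Genes that work with solute carriers were listed beside them, and 27 of 44 were measured. Calls towards zSP numbered 7, there was none towards zMP, and the median difference was 0.09. Over all genes the share of calls was 7.85% in the first direction and 2.89% in the second. This list was also drawn up with earlier results of these data known, so its share cannot be weighed as that of an independent choice. Of 7 Na,K-ATPase alpha subunit genes, the pump that builds the sodium gradient, 4 were called. The largest was atp1a1a.3, at 7.23 and 6.48 in zSP and 4.32 and 4.54 in zMP, a difference of 2.42 (1.94 to 2.91). It was followed by atp1a1a.4 at 2.37 (1.84 to 2.90), atp1a1a.5 at 1.64 (1.41 to 1.87) and atp1a1b at 1.498 (1.01 to 1.99), each with a zMP mean within the blank range. The zSP means of atp1a1a.5 and atp1a1b lay within it too, at 3.80 and 5.54. These subunits are closely related in sequence, and how far their probes tell them apart was not examined. The 3 alpha genes not called, all within the blank range, were atp1a1a.2 at 0.63, atp1a3a at -0.20 and atp1a3b at -0.79 (-0.94 to -0.65). The beta subunit atp1b1a read 11.38 and 11.40 in zSP and 10.20 and 10.16 in zMP. It was called at 1.21 (1.17 to 1.24), a call that ended at 0.84 with its probe sets averaged, while atp1b3b stood at -1.17 (-2.02 to -0.31) and was not called. The median of the 6 beta subunit genes measured was -0.43. The cytosolic carbonic anhydrase ca2, which supplies bicarbonate and protons to carriers, read 9.05 and 8.78 in zSP and 6.64 and 6.29 in zMP. Its difference was 2.45 (2.14 to 2.76). With its 2 probe sets averaged it was 0.88 and no call, so that the second probe set had the other sign. The kinase gene sgk1, known to raise the surface level of several sodium carriers, had 10.82 and 10.14 in zSP and 6.49 and 7.96 in zMP, a difference of 3.26 (2.18 to 4.33). It was the called member among 5 measured regulators of ion cotransport, whose median was -0.72. The ubiquitin ligase nedd4l at -0.86 (-0.96 to -0.76) and the kinases oxsr1a at -0.82 (-1.24 to -0.40) and oxsr1b at -0.72 (-1.06 to -0.38) lay on the other side in every pair, and wnk1b stood at 1.24 (0.43 to 2.06). None of these 4 was called, and oxsr1a and oxsr1b had both means within the blank range.

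**Figure D5:**
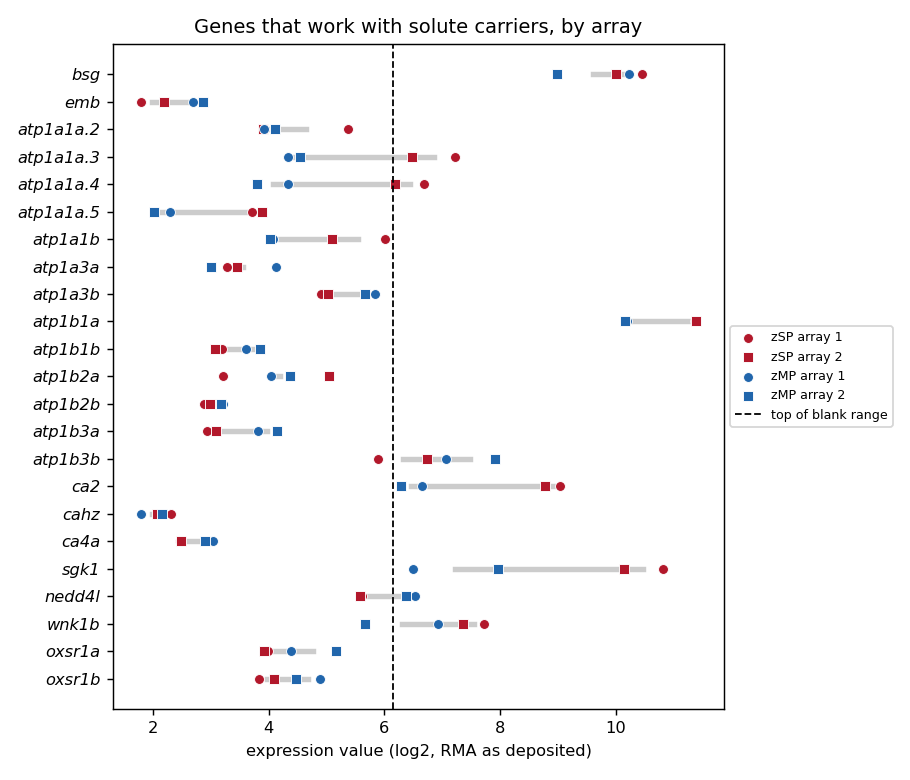
Log2 expression values (horizontal) of chaperone, Na,K-ATPase, carbonic anhydrase and ion cotransport regulator genes on each array, with zSP in red, zMP in blue, replicate 1 as circles, replicate 2 as squares, and the top of the blank range dashed. The 7 called genes are atp1a1a.3, atp1a1a.4, atp1a1a.5, atp1a1b, atp1b1a, ca2 and sgk1, each with both red points to the right of both blue ones.

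Markers of several cell types also differed between the 2 pools, in both directions. They too were chosen with earlier results of these data known, and the shares over all genes are the same 7.85% and 2.89%. All 8 epithelial markers were called higher in zSP, and the log2 of their summed level was 13.54 on both zSP arrays and 7.70 to 7.71 in zMP, where only krt8 had a mean above the blank range. Of 8 kidney tubule markers 4 were measured. The genes cdh17, hnf1bb and pax2a were called higher in zSP and pax8, at -0.78, was not called, with summed levels of 8.01 to 8.63 in zSP and 5.83 to 5.91 in zMP and only cdh17 above the blank range. Of 6 stroma markers 5 were called higher in zSP, with summed levels of 11.67 to 11.87 against 6.85 to 7.82. Among the called, col1a2 and postnb had zSP means of 5.52 and 6.11, within the blank range. Of 5 macrophage markers measured 4 were called higher in zSP, with 10.70 to 10.79 against 8.06 to 8.19. Of 5 neutrophil markers 4 were, with 12.73 to 12.81 against 10.89 to 10.93. The exceptions were lower in zSP in every pair, csf1ra at -0.35 (-0.47 to -0.22), within the blank range, and lyz at -0.40 (-0.64 to -0.15). The highest zSP means in these lists were 10.26 for grna.1, listed under macrophages, and 12.07 for mmp13a, listed under neutrophils. How far mmp9, mmp13a and cebpd are particular to neutrophils was not examined. The other called gene of that list, mpx, stood at 2.05 (1.65 to 2.45). The 7 leukocyte markers measured lay above the blank range in both populations, and 2 were called higher in zMP, with summed levels of 13.07 to 13.17 in zSP and 14.10 to 14.24 in zMP. Both T and NK cell markers measured were called higher in zMP, with 4.56 to 6.30 against 9.42. Of 5 red cell markers measured only the globin hbaa1 was called, at -4.24, with summed levels of 5.47 to 5.98 in zSP against 8.17 to 8.43 in zMP. The others stayed within the blank range, with hbba2 at -1.11, alas2 at -0.40, epb41b at -0.39 and gata1a on the other side at 1.19 (0.57 to 1.82). None of the 3 B cell markers measured was called. Their summed levels, 8.53 to 8.58 in zSP against 8.02 to 8.20 in zMP, came mostly from btk, at 0.72 (0.57 to 0.87). The others had the other sign, blnk at -0.88 (-1.04 to -0.72) and pax5 at -0.34 (-1.22 to 0.55), both within the blank range. The median of the list was -0.34. The part of these cell types in the solute carrier differences was not tested. In bulk RNA, fewer cells of a type and less RNA per cell cannot be told apart.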

How the data were processed

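The deposited values are log2 intensities of 15617 Affymetrix probe sets, summarised by the authors with RMA and affy per the submitters' processing notes. No version or setting is stated there. Amplification took 2 rounds of in vitro transcription, per the labels' protocols. All 4 columns were used as deposited. After 115 control probe sets were left out, 10795 probe sets had 1 gene in the platform annotation, 135 several and 4572 none. A gene was represented by its probe set with the highest mean, which gave 8793 genes. Among the probe sets with several genes, 5 name slc3a2b beside calmodulin genes and were not used. The gene identifiers of all 110 members were matched to GRCz12tu gene names, with no symbol changed.

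Each population is 1 pool, so a rule of size stood in for a test, and no p-value was computed. The call was checked on simulated data. The simulated noise had the same size at every level, so that the check gives no error rate for genes within the blank range. Substrate classes follow the family number, so that slc5a12 and slc2a9l1 count under sugars. Likewise slc6a19a.1 and slc6a19b count under neurotransmitters and osmolytes. The members and lists were chosen with earlier results of these data known. Named genes are the called members (up to 15 a direction), the largest of each class, families 2, 3, 7, 11, 16, 20, 31, 34, 39 and 40, paralogue pairs with a call, and the called partner genes. The other genes named were chosen after their values were seen. Alternatives were other sizes, group means alone, leaving out single arrays, centring on medians, cyclic loess and quantile normalization (limma 3.58.1 in R 4.3.3), other probe set rules, filters on low values and other member rules. Arrays give no depth, and their number, 2 per pool, limits the precision. The blank range was set once the controls had been looked at, and its top without the EGFP reporter control would be 5.24.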

Additional observations from a re-analysis of the deposited data

How the results depend on the processing

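The members called higher in zSP numbered 12 as reported and 9 at 3-fold (4.50% of all genes), 18 at 1.5-fold (11.6%), 11 to 14 under other normalizations and probe set rules (7.35% to 9.34%), 24 by the difference of means alone (background 14.2%), 16 to 20 with 1 array left out and 7 of 22 among members above the blank range (background 16.9%), or 10 of 42 above 5.24 (14.7%). Members called higher in zMP numbered 0 in most settings, 2 at 1.5-fold (background 9.66%), 2 by the means alone (background 9.22%) and 0 to 3 with 1 array left out. The median difference of 0.01 was 0.088 after median centring, 0.078 after a second quantile normalization, 0.23 after cyclic loess (0.0041 for all genes), 0.085 without internal-membrane members, 1.16 above the blank range, 0.77 above 5.24, and 0.0030 to 0.047 with 1 array left out. Both filters on low values favour genes that are high in 1 population. Leaving out slc4a1ap and slc7a6os, an alternative chosen after seeing the data, kept the count at 12 and gave a median of 0.02. Among the 12 calls, slc7a3a, slc22a2 and slc16a12b ended at 3-fold, and slc22a2 ended also with its probe sets averaged and after a second quantile normalization. The other 9 kept their call in all 12 settings that were run for single genes. Most of these settings could not end it. A size of 1.5-fold, the means alone and leaving out an array ask less than the rule used. These 9 also have 1 probe set each, none of shared sequence, so that the probe set rules left them unchanged. Only the 3-fold size and the other normalizations could have ended their calls. No direction of a called member was reversed, but slc4a2a, not called at -0.59, was called at 2.48 without shared-sequence probe sets. No paired analysis was possible because the results come from no test: replicate numbers mark aliquots of 1 RNA pool per population.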
